A study of Mus musculus with 5 samples.

Results

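Retina from mutant mice (Rb-) was set against retina from Wild Type mice on 5 spotted arrays with 2 channels, and the series title places the tissue in explant culture. Every array carried total RNA of the mutant in channel 2 and of the wild type in channel 1, so the 5 arrays are 5 replicates of a single group, numbered in order of accession. The allele, the age and sex of the mice, pooling of animals and the days in culture are not stated in the labels. Nothing says that each array had its own animal or culture, so a p-value here reflects the spread of these 5 arrays alone, and that spread may be technical. The dye of each RNA is not stated, so a log2 ratio is given with the sign it was deposited with, and neither sign is assigned to the mutant. A ratio shows a difference between the RNAs of one array and no expression level, so the presence of a retinal cell type could not be checked from levels. Rb1, the targeted gene, had centred log2 ratios of -0.07, 0.20, -0.23, 0.04 and -0.08 on arrays 1 to 5, averaging -0.03 ± 0.16 (SD, n = 5), with both signs present. Its exact two-sided sign-flip permutation p was 0.688, where 0.0625 is the smallest possible. Neither the part of Rb1 changed in the mutant nor the position of its spot is given, so its ratio does not check the labels.

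The genes described are those of pre-mRNA splicing and of heterogeneous nuclear ribonucleoproteins. They were taken as all spots whose single gene symbol begins with Srsf, Hnrn, Snrp, Sf3, Sf1, U2af, Prpf, Rbm and a digit, Ptbp, Celf, Elavl, Lsm, Ddx or Dhx. This gave 135 of 17328 spots, for 92 genes. A further 23 spots that list a matching symbol beside another one were left out, which removed 9 genes. The rule used names and no measured value.

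Introns are removed by the spliceosome, a set of small nuclear RNAs with their proteins that assembles anew on each intron. SR proteins bind exons and mostly favour the use of nearby splice sites, while hnRNPs coat the transcript and often oppose them, and RNA helicases drive the rearrangements between steps. In retina, several neuronal regulators of this machinery shape the isoforms of differentiating neurons, and inherited loss of photoreceptors in humans can result from mutations in general splicing factors such as PRPF8 and PRPF31. The name prefixes also reach beyond splicing. Ddx and Dhx proteins act in translation, RNA decay and ribosome assembly, and some Lsm proteins in decay and histone RNA processing.

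No splicing or hnRNP gene passed the test between mutant and wild-type retina, and their median stayed near that of all probes. Of the 135 spots, 109 had a ratio on at least 4 arrays and were tested, for 80 genes. The values are log2 ratios, each array centred on its median spot, with 71.8 to 75.9% of spots usable per array, and the number of arrays limits the precision. Their median minus the median of all 10036 probes tested was -0.10, 0.08, 0.006, 0.06 and -0.10 on arrays 1 to 5 in log2 units, averaging -0.01 ± 0.08 (SD, n = 5). It lay above 0 on 3 arrays and below on the other two. Against the median of probes with a single gene symbol the difference was 0.06, 0.05, 0.13, 0.01 and -0.02, averaging 0.05 ± 0.06 (SD, n = 5), and above 0 on 4 arrays. Within the arrays scanned at focus position 10 (arrays 1 to 3) the difference from all probes averaged -0.004. Within arrays 4 and 5, at focus position 0, it averaged -0.0065 over the 8805 probes measured there, 100 of them members. In the fit with limma, 0 of the 109 had an adjusted p under 0.05 (smallest 0.409), where 0% of all probes did. At an unadjusted p under 0.05 there were 11, which is 10.1% against 11.4% of all probes and 9.53% of probes with a single gene symbol, with 6 positive (5.5% against 5.52% and, for single-symbol probes, 3.35%) and 5 negative (4.59% against 5.90% and 6.18%). With all 5 arrays these shares are close to the background and single out no direction for the group. A negative mean was found for 69 of the 109 (63.3%), against 60.4% of all probes and 65.8% of single-symbol probes. The sign counts of the role groups below are to be read against these shares. Their counts at an unadjusted p under 0.05 are to be read against the 5.52% positive and 5.90% negative of all probes. The count of 11 depended on single arrays. It was 3 without array 1 (2.75% of members against 8.42% of all probes), 4 without array 3 (3.67% against 8.23%), 4 without array 4 (3.67% against 9.62%) and 7 without array 5 (6.42% against 9.06%). Without array 2 it was 11 (10.1% against 11.7%). Its split depended on the centring, as did that of all probes. With no centring it was 0 positive and 19 negative, against 270 and 1837 of all probes. With centring on complete probes it was 11 and 3, against 775 and 363, and with centring on single-symbol probes 9 and 4, against 742 and 385.

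**Figure D1:**
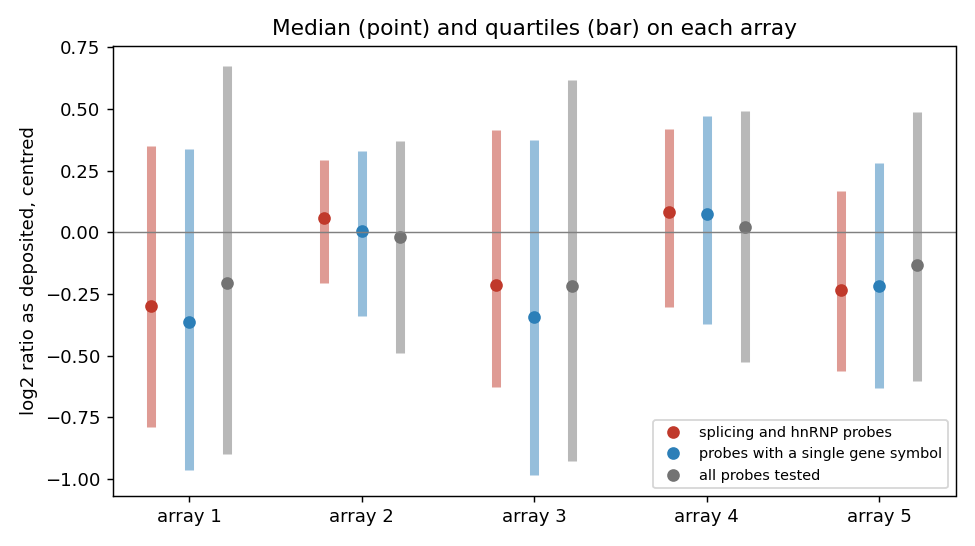
Median (point) and quartiles (bar) of the centred log2 ratio on each of the 5 arrays for 109 splicing and hnRNP probes, 5822 probes with a single gene symbol and all 10036 probes tested. The medians of the splicing and hnRNP probes lie between -0.10 and 0.08 of those of all probes, and their bars are shorter.

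Extreme ratios were less frequent among these genes than among all probes, and less frequent still among splicing genes without the prefixes. Probes beyond 1 log2 unit on array 1 made up 29.2% of splicing and hnRNP probes, against 40.3% of all probes. On array 2 the share was 13.5% against 25.8%, and on array 3 it was 22.4% against 40.0%. Arrays 4 and 5 gave 21.9% against 27.5% and 12.5% against 26.3%. The share was lower for the members on all 5 arrays. Probes with a single gene symbol, which are the closer comparison, had 35.6%, 18.4%, 36.3%, 22.1% and 20.1%. Over the mean of the arrays, 10 of 109 members (9.17%) lay beyond 1 log2 unit, against 18.3% of all probes and 13.3% of single-symbol probes. The SD between arrays had a median of 0.55 over the members, 0.72 over single-symbol probes and 0.87 over all probes. The 68 tested probes of other splicing genes, described at the end, had 4.41% beyond 1 log2 unit and a median SD of 0.48, both lower than the members. These differences are descriptions with no test.

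The share of member spots measured was above that of all spots, while its interval held the share of single-symbol spots. On at least 4 arrays a ratio was present for 109 of 135 spots (80.7%, 95% Wilson interval 73.3 to 86.5%, covering counting error only), against 75.4% of single-symbol spots and 58.6% of all spots other than the control. Completeness and spread went together. The 90 member probes measured on all 5 arrays had a median SD of 0.49, and the 19 measured on 4 arrays had 1.41. Among single-symbol probes the same medians were 0.61 and 1.32, and among all probes 0.67 and 1.41. These are descriptions, and the 19 probes are few. Signal brightness was not used here, and its part in this was not tested.

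**Figure D2:**
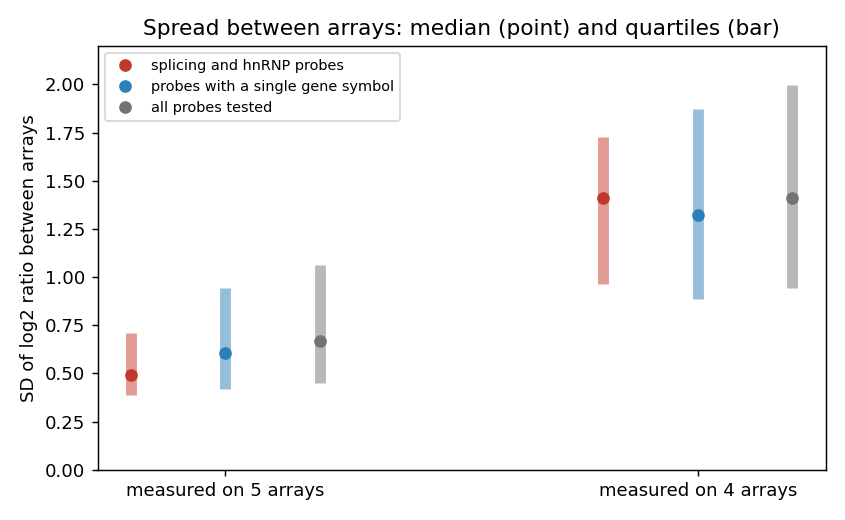
SD of the log2 ratio between arrays, as median (point) and quartiles (bar), for probes measured on 5 and on 4 arrays. Splicing and hnRNP probes lie lowest among complete probes, at 0.49 against 0.67 for all probes, and at 1.41 on 4 arrays, where single-symbol probes are at 1.32 and all probes at 1.41.

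The 12 genes that fell short of 4 arrays on every spot were Celf5, Ddx6, Hnrnpd, Hnrnpm, Lsm14b, Rbm14, Rbm15b, Rbm5, Rbm6, Sf3b6, Snrpd1 and U2af2. Their spots varied widely. Snrpd1, which encodes the Sm protein D1 of the snRNP core, had 1.9, 2.91 and 0.11 on arrays 1, 3 and 5, and U2af2, the large subunit that recognises the polypyrimidine tract, had -3.38 and 2.87 on arrays 1 and 5. No value of these genes was tested, and Snrpd1, outside the naming rule, was chosen after its values were seen.

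Marker lists of retinal cells were read on the same arrays. The rod markers tested, 23 probes for 13 of 18 listed genes, had a median minus all probes of -3.61, 0.12, -3.58, -0.38 and -0.06 on arrays 1 to 5. The cycling cell markers, 14 probes for 12 of 17 genes, had 2.2, -0.06, 2.58, 0.76 and 0.14. Both were far from all probes on arrays 1 and 3, where the splicing and hnRNP median minus all probes was -0.10 and 0.006. Without both of these arrays, 8 of the 109 splicing and hnRNP probes (7.34%) had an unadjusted p under 0.05, against 8.50% of all probes. Cone markers (8 probes for 7 of 10 genes) gave -1.11, 0.37, -1.12, 0.39 and -0.36. Inner retinal neuron markers (14 probes for 7 of 12 genes) gave -0.67, -0.12, -1.06, -0.24 and -0.03, and Muller glia markers (8 probes for 4 of 6 genes) -0.12, -0.06, 0.07, 0.05 and -0.04. Bipolar markers came down to 1 of 7 listed genes, whose 2 probes gave -0.43, -0.11, -0.95, -0.16 and -0.17. The list of vessels, blood and immune cells had a single probe and is not read. In these bulk samples fewer cells of a type and less RNA per cell cannot be told apart. The part of cell makeup in the values of single genes below was not tested.

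**Figure D3:**
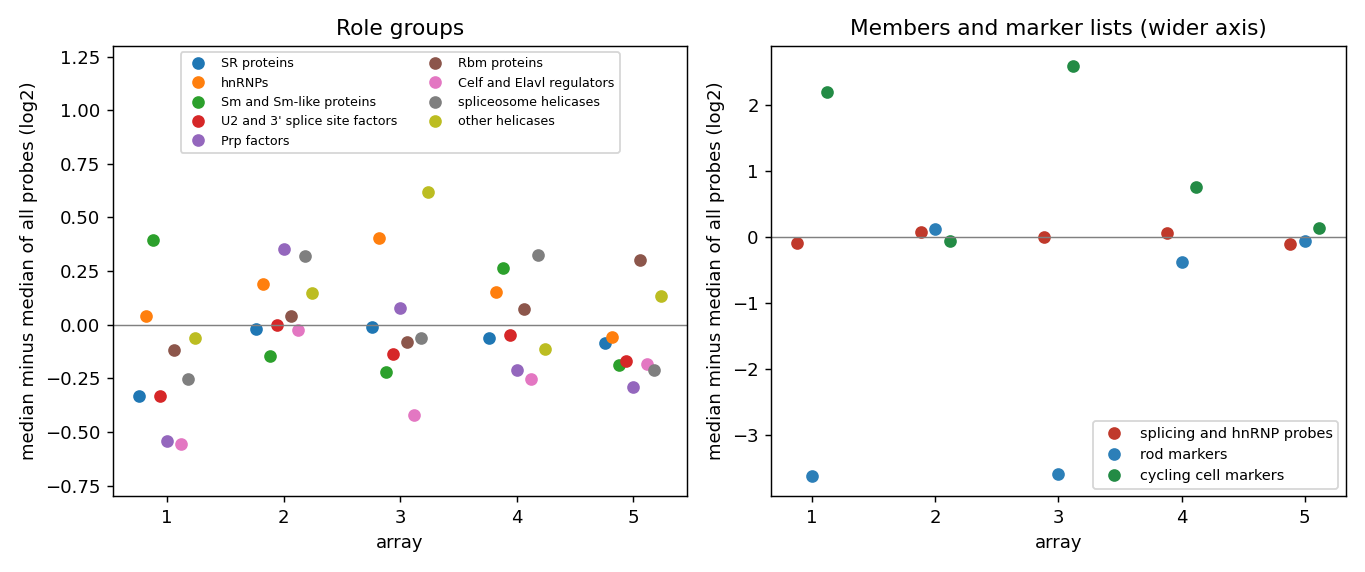
Median of each role group (left) and of the splicing and hnRNP probes with 2 marker lists (right, wider axis), each minus the median of all probes, on 5 arrays. Role groups stay between -0.56 and 0.62, while rod markers reach -3.61 and cycling cell markers 2.58.

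Repetition of the sign across arrays was close to the background as well. Of the 90 member probes on all 5 arrays, 18 kept one sign throughout (20%), against 15.3% of all complete probes and 16.2% of single-symbol ones. Positive throughout were 5 (5.56% against 4.01% of all complete probes and 3.39% of single-symbol ones) and negative throughout 13 (14.4% against 11.2% and 12.8%). The positive ones were probes of Hnrnpl, Srsf3, Rbm25 and Ddx3x, the last with both of its tested probes. Negative were probes of Srsf10, Sf3b3, Lsm4, Ddx56, Sf3b1, Srsf5, Ddx39b, Dhx57, Hnrnpu, Snrpa and Prpf31, and 2 of the 3 probes of Celf1. For Hnrnpu it was not the probe of smallest p. Rbm25, Srsf5, Dhx57 and Snrpa fall outside the naming rule and are named because these counts are small. Rbm25, a U1-associated regulator of 5′ splice site choice, had ratios of 0.03, 0.33, 0.42, 0.28 and 0.29 on arrays 1 to 5, averaging 0.27 ± 0.15 (SD, n = 5). Its other spot, on 3 arrays and not tested, had 0.20, -0.72 and 0.74 on arrays 1, 4 and 5. Snrpa, a protein of the U1 snRNP, had -0.06, -0.30, -0.44, -0.32 and -0.48, a mean of -0.32 ± 0.16 (SD, n = 5). The one-sign probes of Rbm25 and Snrpa were small in every array, with a narrower spread than most members.

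A single sign on all 5 arrays together with an unadjusted limma p under 0.05 was found for Hnrnpl, Srsf3, Sf3b3 and Srsf10, none of which passed after adjustment (adjusted p from 0.432 to 0.435). Alone, the single sign was met by 15.3% of all complete probes and such a p by 11.4% of all probes tested. The share of all probes that met both was not counted, so these 4 genes are not shown to stand out. The 250 bases before their annotated starts are shown because E2F factors, the partners that Rb restrains, act at promoters. Sequences are from RefSeq (GRCm38.p6), 5′ to 3′ on the gene's strand. Capitals mark the letters TTTCCCGC, TTTCGCGC, TTTGCCGC or TTTGGCGC, the spellings of the usual E2F site, on either strand.
Hnrnpl, chr7:28810640-28810889, plus strand: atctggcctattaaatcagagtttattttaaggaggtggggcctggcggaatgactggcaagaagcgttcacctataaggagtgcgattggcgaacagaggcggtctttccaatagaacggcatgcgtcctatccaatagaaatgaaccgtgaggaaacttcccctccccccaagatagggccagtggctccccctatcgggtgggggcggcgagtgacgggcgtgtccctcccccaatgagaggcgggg
Srsf3, chr17:29032410-29032659, plus strand: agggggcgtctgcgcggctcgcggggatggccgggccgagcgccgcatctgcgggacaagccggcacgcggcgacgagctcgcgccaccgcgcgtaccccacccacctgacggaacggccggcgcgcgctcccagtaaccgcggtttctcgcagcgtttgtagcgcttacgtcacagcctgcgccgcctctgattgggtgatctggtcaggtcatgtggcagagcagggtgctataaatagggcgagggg
Sf3b3, chr8:110846804-110847053, minus strand: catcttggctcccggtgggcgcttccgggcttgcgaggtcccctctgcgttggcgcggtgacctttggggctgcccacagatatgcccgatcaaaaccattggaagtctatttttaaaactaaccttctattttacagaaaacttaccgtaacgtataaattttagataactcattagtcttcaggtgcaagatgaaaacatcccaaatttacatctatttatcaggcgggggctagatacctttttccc
Srsf10, chr4:135855821-135856070, plus strand: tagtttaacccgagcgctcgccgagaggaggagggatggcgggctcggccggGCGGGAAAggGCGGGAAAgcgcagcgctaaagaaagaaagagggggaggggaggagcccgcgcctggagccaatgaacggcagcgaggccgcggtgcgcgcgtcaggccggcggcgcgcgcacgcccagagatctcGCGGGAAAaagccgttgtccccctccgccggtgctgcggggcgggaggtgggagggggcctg
Only the last of these 4 windows holds the letters, with 3 matches that do not overlap. Over the 79 member genes with an entry, 6 windows hold a match (7.59%), against 4.16% of 4620 genes of single-symbol spots and 2.16% of 27025 genes in the table. Among the members with a probe positive on all 5 arrays it was 0 of 4, and among those negative on all 5, 2 of the 11 with an entry. A match is a spelling and not a shown site, and the windows without one say nothing about binding elsewhere.

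No SR protein passed the test, and small unadjusted p-values occurred in both directions. Of 13 probes for 8 genes, 4 had a positive and 9 a negative mean, and 2 positive and 3 negative ones had an unadjusted p under 0.05, where 5.52% and 5.90% of all probes did. None passed after adjustment (smallest adjusted p 0.409), and the 5 probes are of 4 genes. Their median minus all probes was -0.33, -0.02, -0.01, -0.06 and -0.09 on arrays 1 to 5, below 0 on each. Against single-symbol probes it was -0.17, -0.05, 0.11, -0.11 and -0.0025, with array 3 above 0. Srsf11, a protein with an arginine and serine rich region known as p54, showed log2 ratios of -2.51, -1.09, -4.78 and -2.12 on arrays 1, 2, 3 and 5, averaging -2.62 ± 1.56 (SD, n = 4). All 4 were negative, and its other spot, on 2 arrays only, had -0.65 and 0.45 on arrays 3 and 5. Srsf10, which represses splicing when dephosphorylated and whose promoter window holds the 3 matches above, had -1.95, -0.04, -0.55, -1.8 and -0.93 on arrays 1 to 5, averaging -1.05 ± 0.81 (SD, n = 5). Arrays 1 and 4 were the lowest. Its second probe had -3.66, -2.83, -1.23 and 0.32 on arrays 1, 3, 4 and 5, a mean of -1.85 ± 1.76 (SD, n = 4), so that both Srsf10 probes were lowest on array 1 and only array 5 of the second was positive.

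On the positive side, Srsf3, the smallest SR protein and also an adaptor of mRNA export, had 0.67, 0.03, 1.18, 1.18 and 0.45 on arrays 1 to 5, averaging 0.70 ± 0.49 (SD, n = 5). Array 2 lay near 0 and arrays 3 and 4 were the highest. Srsf1, the prototype of the family, had 0.54, 1.47, 0.81, 0.92 and -0.09, a mean of 0.73 ± 0.57 (SD, n = 5), positive on 4 of 5 arrays. Its other probes disagreed, one with 2.3, 1.2, 0.89 and -0.26 on arrays 1, 3, 4 and 5 and one with 1.48, -1.27, -0.32 and -2.0 on arrays 1, 2, 3 and 4. Srsf2, known as SC35 and a marker of nuclear speckles, stayed near 0 with a mean of -0.05 ± 0.48 (SD, n = 5) and a range of -0.75 to 0.57. The adjusted p of these 5 genes ran from 0.409 to 0.936. The 3 complete probes of Srsf6, a gene outside the naming rule and chosen after its values were seen, had means of -0.25, 0.06 and -0.02.

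Heterogeneous nuclear ribonucleoproteins were evenly divided. Of 24 probes for 13 genes, 12 had a positive and 12 a negative mean, with a median of -0.0049 and means from -1.54 to 0.89. Their median minus all probes was 0.04, 0.19, 0.40, 0.15 and -0.06 on arrays 1 to 5. Single probes at an unadjusted p under 0.05 numbered 1 in each direction, against 5.52% positive and 5.90% negative of all probes. Hnrnpu, a scaffold that binds RNA and chromatin, showed how far spots of one gene can part. Its lowest probe had -2.57, 0.16, -1.72, -1.43 and -2.14, a mean of -1.54 ± 1.04 (SD, n = 5), negative on 4 arrays. The other 4 complete probes had means of -0.41, -0.10, 0.13 and 0.14, the last with ratios from -0.03 to 0.23. Thus 1 of 5 Hnrnpu probes lay far from 0, and it is the one plotted for the gene by the naming rule.

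Hnrnpl, which binds CA-rich elements, had 1.26, 0.17, 1.12, 0.42 and 1.46, a mean of 0.89 ± 0.56 (SD, n = 5), positive throughout with array 2 lowest. Its second probe went the other way with -3.33, -0.33, -1.84 and 0.94 on arrays 1, 3, 4 and 5. Hnrnpa2b1, a relative of A1 that also guides RNA transport, had -3.82, 0.51, -1.64 and -1.05 on arrays 2, 3, 4 and 5 by one probe. Its complete probe read -0.08, 0.47, 0.44, 0.44 and 0.12, with only array 1 negative. Hnrnpk, a poly(C)-binding protein, was among the most even genes, with means of 0.29 ± 0.26 (SD, n = 5) and 0.24 ± 0.27 (SD, n = 5) on its 2 probes and 4 positive arrays on each. Hnrnpa1, the classical opponent of SR proteins, had means of 0.37 ± 0.88 (SD, n = 4) and -0.08 ± 0.62 (SD, n = 5), with both signs among the arrays of each. Hnrnpul2, related to Hnrnpu, had -1.16, 0.29, -0.66, -0.27 and -0.58, negative on 4 arrays. Within this class the adjusted p of the named genes ran from 0.409 to 0.691.

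Proteins with Snrp and Lsm names include those that form rings on the small nuclear RNAs and others that belong to a single particle. Among 13 probes for 13 genes, 5 had a positive and 8 a negative mean. At an unadjusted p under 0.05 there was 1 positive probe, against 5.52% of all probes. The median minus all probes was 0.40, -0.15, -0.22, 0.26 and -0.19 on arrays 1 to 5, so arrays 1 and 4 were positive and the others negative. Snrpg, the Sm protein G, had 1.74, -0.11, 0.86, 1.31 and 0.57, a mean of 0.87 ± 0.71 (SD, n = 5) (adjusted p = 0.432). It was positive on 4 arrays with array 2 slightly negative. Lsm4, of the ring that holds U6 snRNA, had -1.05, -0.21, -1.56, -0.21 and -0.38, a mean of -0.68 ± 0.60 (SD, n = 5), with arrays 1 and 3 lowest. Lsm14a, a protein of cytoplasmic processing bodies, had 0.54, 1.45, -0.29 and 0.84 on arrays 1, 2, 3 and 5. Lsm11, of the U7 snRNP that processes histone mRNA, had -1.22, 0.24, -7.46, -0.07 and -0.46 on arrays 1 to 5. Its mean of -1.79 rested on array 3 and was -0.38 without it.

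Recognition of the branch point and 3′ splice site by SF3a, SF3b and U2AF was represented by 9 probes for 8 genes, 7 of them with a negative mean. At an unadjusted p under 0.05 there was 1 negative probe, against 5.90% of all probes, and none passed (smallest adjusted p 0.432). The group median minus all probes was -0.33, 0.00, -0.14, -0.05 and -0.17 on arrays 1 to 5, and -0.17, -0.03, -0.009, -0.10 and -0.09 against single-symbol probes, at or below 0 on all. Sf3b3, a scaffold subunit of SF3b, had -1.0, -0.02, -0.68, -0.68 and -1.18, a mean of -0.71 ± 0.44 (SD, n = 5). Its other probe had -0.60, -1.15, -0.57 and -4.01 on arrays 1, 2, 3 and 5, so all 9 Sf3b3 ratios were negative. Sf3b1, the SF3b subunit that clamps the branch point helix, had -1.4, -0.09, -0.50, -0.44 and -0.30, a mean of -0.55 ± 0.50 (SD, n = 5). Every array was negative and array 1 was the lowest. Sf3b2 had a mean of -0.33 ± 0.38 (SD, n = 5), while Sf3a1, of the SF3a complex, had -0.13, 1.0, -0.35, 1.34 and 1.39 and so split between the arrays, negative on arrays 1 and 3 and positive on the rest.

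Prp factors, named after yeast mutants with defective RNA processing, came to 6 probes for 6 genes, 5 with a negative mean and none at an unadjusted p under 0.05. Their median minus all probes was -0.54, 0.35, 0.08, -0.21 and -0.29 on arrays 1 to 5. Prpf31, which holds the U4/U6 and U5 particles together, had -0.75, -0.002, -0.14, -0.09 and -0.53, a mean of -0.30 ± 0.32 (SD, n = 5) (adjusted p = 0.592). No array was positive, and array 2 was at about 0. Prpf8, the largest core protein of the spliceosome, had -0.98, 0.07, 0.14, -0.33 and -0.35, a mean of -0.29 ± 0.45 (SD, n = 5) (adjusted p = 0.629), with both signs present. Its other spot, on 3 arrays and not tested, had -0.91, 1.33 and 2.26 on arrays 2, 3 and 5, a mean of 0.89. Thus neither of these genes tied to human retinal degeneration passed the test. Prpf40b had 2.96, 1.67, -0.29 and -0.63 on arrays 2, 3, 4 and 5 and Prpf38b had -1.23, 1.24, -1.95 and -0.50 on arrays 1, 2, 4 and 5, each spread over more than 3 log2 units.

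Rbm proteins share an RNA-binding motif and little else. Of 13 probes for 11 genes, 5 had a positive and 8 a negative mean. Rbm7, a subunit that brings nuclear RNA to the exosome, had -0.76, 2.62, 0.59, 4.64 and 2.12, a mean of 1.84 ± 2.05 (SD, n = 5), the highest of any member tested. The arrays differed by more than 5 log2 units, from below 0 on array 1 to 4.64 on array 4, and its adjusted p was 0.435. Its mean was 0.81 within focus position 10 and 3.38 within focus position 0. Rbm4, a regulator of alternative exons, had -1.07, -0.32, -1.27, 0.10 and -0.61 and a mean of -0.63 ± 0.55 (SD, n = 5). Its close relative Rbm4b had 0.78, -0.05, 0.03, 0.38 and 0.82 by one probe, and its other probe read 2.77, 0.55, 1.05, 0.02 and -2.32. Rbm4 and Rbm4b are close paralogs, so spots for them may share signal, which was not tested. Rbm33 had means of -0.66 ± 0.79 (SD, n = 5) and -0.39 ± 1.41 (SD, n = 4) on its 2 tested probes.

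Celf and Elavl proteins bind GU-rich and AU-rich RNA and are prominent in neurons. The 5 probes were of Celf1, Celf4 and Elavl4, since no spot with a single symbol named Ptbp1, Ptbp2, Elavl1, Elavl2 or Elavl3 entered the test. Their median minus all probes was -0.56, -0.03, -0.42, -0.25 and -0.18 on arrays 1 to 5, and -0.40, -0.05, -0.29, -0.30 and -0.10 against single-symbol probes, negative on each. Celf1, a regulator of alternative exons and mRNA decay, had -1.59, -0.34, -0.64, -0.23 and -0.61 on its probe of smallest p, a mean of -0.68 ± 0.54 (SD, n = 5) (adjusted p = 0.436). Its other probes had means of -0.53 ± 0.38 (SD, n = 5) and -0.15 ± 0.39 (SD, n = 5), so all 3 were negative. Celf4, a neuronal member, had -0.55, -0.21, -1.95, 0.04 and -0.31, lowest on array 3. Elavl4, the neuronal protein HuD, had -0.51, 0.97, 0.56, -0.70 and 0.25, with both signs and a mean of 0.12 ± 0.71 (SD, n = 5). These 3 genes give the lowest group median, from few probes, and 3 of the 5 are one gene.

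Helicases of the spliceosome, 6 probes for 5 genes, were split 3 to 3 by the sign of the mean, and none had an unadjusted p under 0.05. Ddx39b, the helicase UAP56 that acts at U2 recruitment and mRNA export, had -0.64, -0.61, -0.56, -0.12 and -0.62 on one probe, a mean of -0.51 ± 0.22 (SD, n = 5) (adjusted p = 0.442). Here 4 arrays lay between -0.64 and -0.56 and array 4 was nearer to 0. The other Ddx39b probe had 1.02, 0.42, 1.79, 0.45 and -0.57, with a mean of 0.62 ± 0.87 (SD, n = 5), so the 2 probes opposed each other. Dhx16, which activates the assembled spliceosome, had -0.98, 0.04, -0.17, -0.06 and -0.14. Ddx41 had a mean of 0.23 ± 0.60 (SD, n = 5) and Ddx42, an SF3b-associated helicase, 0.20 ± 0.55 (SD, n = 5).

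The remaining Ddx and Dhx helicases act mostly outside splicing. Among 20 probes for 13 genes, 7 had a positive and 13 a negative mean. Only 1 positive probe had an unadjusted p under 0.05, against 5.52% of all probes. Dhx29, which helps ribosomes scan structured leaders, had 1.21, -0.02, 2.17, 0.41 and 0.77 on that probe, a mean of 0.91 ± 0.84 (SD, n = 5) (adjusted p = 0.435), highest on arrays 1 and 3. Its other tested probes had means of 0.32 ± 0.41 (SD, n = 5) and -0.49 ± 1.41 (SD, n = 5). Ddx3x, a helicase of translation initiation, had 1.76, 0.06, 1.6, 0.88 and 0.008 and 0.88, 0.54, 0.40, 0.33 and 0.04 on arrays 1 to 5 of its 2 tested probes, means of 0.86 ± 0.83 (SD, n = 5) and 0.44 ± 0.31 (SD, n = 5). All 10 of these ratios were positive, the second probe with a smaller range. The other Ddx3x spot, on 2 arrays only and not tested, had 0.32 and -2.36 on arrays 1 and 4. Dhx36, which unwinds G-quadruplexes, had means of -0.72 ± 0.71 (SD, n = 5) and 0.13 ± 0.60 (SD, n = 5), and Ddx56, a nucleolar helicase, had -1.87, -0.07, -0.61, -0.19 and -0.55. The 3 tested probes of Ddx5, picked out for their values and not by the naming rule, had SDs of 1.89, 2.55 and 1.37, among the widest of the members.

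**Figure D4:**
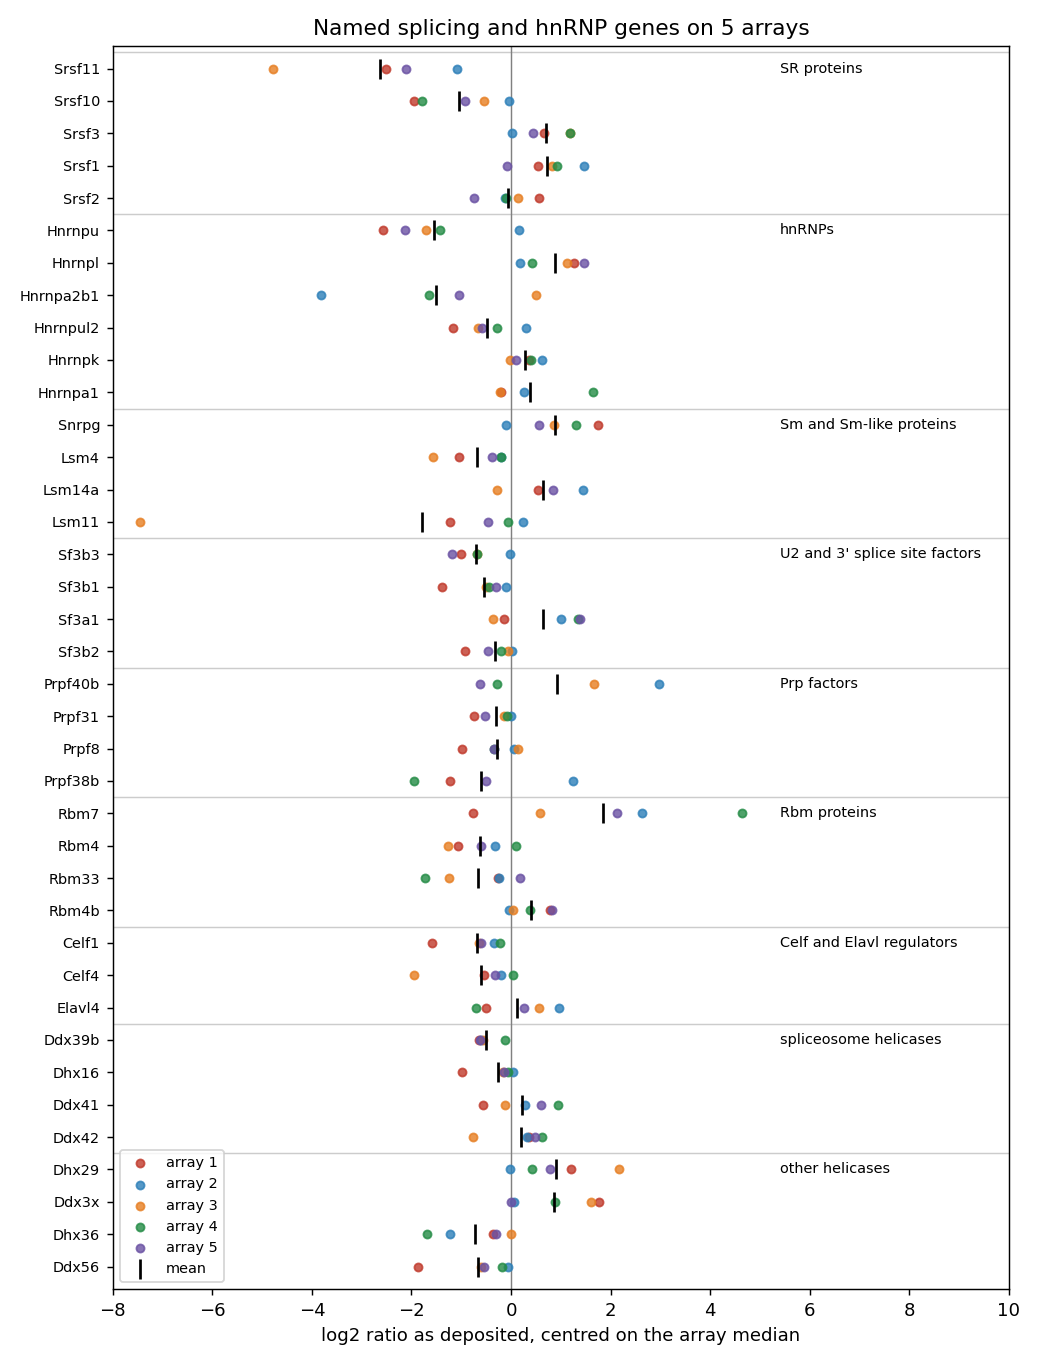
Centred log2 ratios of the 38 named genes on arrays 1 to 5 (points) with their mean (bar), by the probe of smallest p and grouped by role. Most gene means lie within 1 log2 unit of 0, Lsm11 on array 3 reaches -7.46, and Rbm7 on array 4 reaches 4.64.

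Probes of the same gene often disagreed, which limits the reading of any single spot. Of 20 member genes with at least 2 tested probes, 9 (45%) had means of one sign on all of them, against 54.5% of 989 single-symbol genes. With only 2 probes it was 7 of 13 (53.8%), against 58.5% of 825 genes. Among probes measured on all 5 arrays, 7 of 12 member genes (58.3%) had one sign, against 60.1% of 591. The genes with one sign were Celf1, Ddx17, Ddx3x, Ddx5, Hnrnpk, Rbm33, Rbm4b, Sf3b3 and Srsf10. The widest gaps between probe means were 2.03 for Hnrnpl, 1.78 for Hnrnpa2b1, 1.68 for Hnrnpu and 1.56 for Srsf1. At the other end stood Rbm4b with 0.025, Hnrnpk with 0.053 and Ddx17, a relative of Ddx5, with 0.0864. Close means or a shared sign do not show agreement on each array. The Rbm4b probes read 0.82 and -2.32 on array 5 and had SDs of 0.40 and 1.84. Each tested Ddx5 probe had both signs among its arrays. Spots may detect different parts of a transcript or related genes, and this was not tested.

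**Figure D5:**
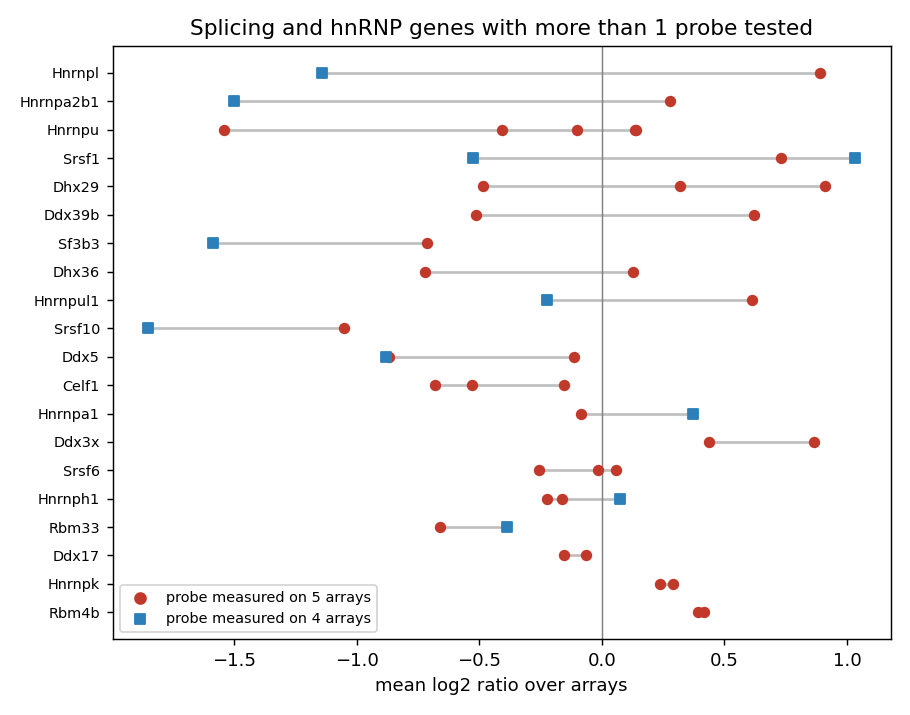
Mean log2 ratio of each tested probe for the 20 splicing and hnRNP genes with more than 1, ordered by the gap between probes. Circles are probes measured on 5 arrays and squares on 4; in 11 genes the probes fall on both sides of 0.

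The rest of the splicing pathway, taken from a list of 95 genes without these prefixes, was read beside them. It had 68 tested probes for 49 genes, of which 0 passed after adjustment and 4 had an unadjusted p under 0.05 (5.88% against 11.4% of all probes), 2 in each direction. The median minus all probes was -0.13, 0.12, -0.12, 0.06 and -0.11 on arrays 1 to 5, averaging -0.04 ± 0.12 (SD, n = 5). The probes with a small p were of Nova2 and Rbfox2, neuronal regulators of alternative exons, on the negative side, and of Tra2b, an SR-related protein, and Syncrip, an hnRNP-like protein, on the positive side. Nova2 had -1.47, -0.71, -0.89, -0.19 and -1.83, a mean of -1.02 ± 0.64 (SD, n = 5), negative on all 5 arrays. Its other probe had a mean of -0.03 ± 0.98 (SD, n = 5). Rbfox2 had -2.1, -0.46, -0.69 and -1.26 on arrays 1, 3, 4 and 5, and its other probe had a mean of -0.25 ± 1.00 (SD, n = 5). Tra2b had 2.1, 0.00, 0.94 and 1.42 on arrays 1, 2, 3 and 5, at 0 or above on the 4 arrays measured. Syncrip averaged 0.88 ± 0.61 (SD, n = 4) and was positive on each of its arrays.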

How the data were processed

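The deposited table holds 1 log2 ratio per spot and array. Per the labels, arrays were read with GenePix Pro as ratios of 635 over 532 nm, unnormalized, after subtraction of the background around each spot. The dye of each RNA and the brightness of each spot are not given there. Here, values of 16.61 (log2 of 100000, a filler) were set to missing and each array was centred on its median, control spots included. ACTB control spots were then left out, and probes on at least 4 of 5 arrays were kept.

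The ratio was tested against 0 with limma 3.58.1 (lmFit and eBayes) in R 4.3.3, with Benjamini-Hochberg adjustment over all 10036 probes and a threshold of 0.05. The fit was also run on simulated ratios with independent normal noise, of equal spread on every array for a given probe. The real arrays differ in spread, so that run does not show how the fit performs on them. A gene with no probe on 4 arrays was not tested. Spot names come from the platform annotation, and a promoter entry was found for 79 of the 92 member genes.

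Named genes are up to 4 per role with the smallest p, plus a list of well-known factors where measured. The members and lists were chosen with earlier results of these data known. Alternatives were other centrings and scalings, filters, probe rules, array weights, an unmoderated test, focus positions and leaving out arrays.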

Additional observations from a re-analysis of the deposited data

Results flagged for a closer look

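Among 49 sets of 4 or 5 arrays (38 named genes, 9 role groups and 2 gene lists), 5 held an array far from the rest. Chance flags about 1 in 20 groups, or 2.45 of these, if all arrays have equal spread. The arrays did not: the distance between quartiles over all probes was 1.57, 0.86, 1.55, 1.02 and 1.09 on arrays 1 to 5. The figure of 2.45 is therefore only a rough guide. The log2 ratio of Lsm11 was -7.455 on array 3, while its other arrays ran from -1.22 to 0.241. Ddx39b had -0.1215 on array 4, against -0.641 to -0.563. Dhx16 had -0.977 on array 1, against -0.165 to 0.041. Ddx42 had -0.763 on array 3, against 0.317 to 0.6175. The median of the SR proteins minus all probes was -0.3305 on array 1, against -0.0865 to -0.012.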

How the results depend on the processing

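No splicing or hnRNP probe had an adjusted p under 0.05 in limma under any alternative run. The count at an unadjusted p under 0.05, 11 of 109, moved to 19 with no centring (17.43% against 20.99% of all probes). With the arrays at focus position 10 only it was 4 (3.67% against 7.194% of all probes). With those at focus position 0 only it was 7 of 100 (7% against 6.985%). The count ran from 3 to 11 when 1 array was left out. Under every alternative the group's median minus all probes moved by less than its SD between arrays, from -0.0658 to 0.0506. No role group value moved further than its SD. Other centrings, no centring and array weights could not move these differences, because a constant per array cancels in them and medians were not weighted. Those settings therefore say nothing about their stability. Without centring the mean of the array medians of all probes was -0.57, against -0.11.

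Of 751 values of named genes, 728 kept their sign and side of the threshold and 23, in 13 genes, turned sign, none of them past the threshold. Many of the 751 could not turn sign because they repeat the main mean. These include the unmoderated test, the filters on arrays measured and the probe rules for genes with a single tested probe. With no centring Hnrnpk was -0.1704, Hnrnpa1 -0.015, Rbm4b -0.0674, Elavl4 -0.3438, Ddx41 -0.2304 and Ddx42 -0.255. Srsf2 was 0.101 with centring on complete probes and 0.0848 on single-symbol probes. The mean over probes of Ddx39b was 0.0549. At focus position 10 Srsf2 was 0.1933, Hnrnpa1 -0.054, Prpf38b 0.0065, Ddx41 -0.138 and Ddx42 -0.029, and at focus position 0 Prpf40b was -0.4592 and Elavl4 -0.2223. With 1 array left out, Elavl4 ran from -0.09863 to 0.3185, Hnrnpa1 from -0.054 to 0.5732 and Srsf2 from -0.2099 to 0.1211. By the probe of smallest spread Hnrnpu was 0.1375, Hnrnpa2b1 0.2795, Hnrnpa1 -0.0847 and Dhx36 0.1257. The cause was not tested. No paired analysis was possible because no other group shares replicate numbers with these arrays. The ratio within an array already pairs the RNAs. Depth and signal over background are unknown, and 5 arrays limit what could be called.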
